A study of Homo sapiens with 6 samples.

Results

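The genes described here encode 10 proteins that the liver secretes into plasma, as carriers of small molecules, as scavengers of haemoglobin and haem, or as protease inhibitors and acute-phase proteins: HP, HPX, ORM1, ORM2, AHSG, FETUB, TTR, RBP4, AMBP and ITIH2. They were taken by gene name from a fixed list, drawn up with earlier results of these data known, out of the 29153 genes of the deposited table, and all 10 passed the filter on low values that left 13452 genes for testing (a mean FPKM, fragments scaled to transcript length and to library total, of at least 0.5 over the 6 libraries). RNA was sequenced from HepG2, an established human line derived from a liver cancer that secretes many plasma proteins. The line carried either a control short hairpin, delivered by lentivirus for 72 h (shNC, genotype labelled Control), or a hairpin against LINC01977, a long non-coding RNA, delivered for the same time (shLINC01977). Each group held 3 libraries, both groups carried a viral hairpin, and the comparison rested on 1 cell line and 1 hairpin sequence. No source states that the libraries of a group came from separate cultures, so the p-values measure only the spread between these libraries, which may be technical.

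Plasma proteins of this kind are made mainly by hepatocytes, whose transcription factors keep their genes active. During inflammation, interleukin 6, interleukin 1 and glucocorticoids raise the output of positive acute-phase proteins such as haptoglobin and the acid glycoproteins, while negative acute-phase proteins such as albumin, transthyretin and fetuin-A fall. Their messenger RNA levels are therefore widely read as a measure of both hepatocyte identity and inflammatory signalling.

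The total counts were between 49929024 and 60441515 per library. LINC01977 itself had counts of 4, 0 and 16 in the shNC libraries and of 0, 0 and 4 in the shLINC01977 libraries. Such low counts cannot show whether the target fell, so within these data the groups rest on the labels. The paper reports a qRT-PCR check of knockdown in stable lines that include HepG2. It does not state that the RNA of these libraries was checked. Of 11 markers of hepatocytes and HepG2, all were detected, 7 were lower and 1 was higher in the shLINC01977 libraries, and their summed FPKM was 5048 to 5496 in shNC and 3888 to 3929 in shLINC01977 libraries. Markers of other cell types were mostly near 0: the summed FPKM of 5 mesenchymal markers was 3.04 to 4.21 in shNC and 5.48 to 7.67 in shLINC01977 libraries (1 of 2 tested genes higher, with VIM, COL3A1 and THY1 below the filter), that of 3 endothelial markers was 0.266 to 0.441 and 0.220 to 0.315 (none above the filter), and that of 3 immune markers was 9.23 to 12.5 and 13.5 to 15.7 (CD68, not called, was the tested gene and gave nearly all of it), with PTPRC and CD163 at or near 0. The 4 cholangiocyte markers summed to 218 to 239 in shNC and 305 to 307 in shLINC01977 libraries, with KRT19 higher and SOX9 lower. The part of these differences in the results below was not tested.

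Across the 10 genes, 7 were lower in the shLINC01977 libraries, 0 were higher and 3 did not pass the test. The 7 that fell were HP, HPX, RBP4, ORM1, ORM2, AMBP and ITIH2, with falls between 14.75% and 48.16%. AHSG, FETUB and TTR were not called. The test was edgeR's quasi-likelihood test on the deposited counts with an adjusted p under 0.05 (Benjamini-Hochberg over all tested genes). For background, 15.1% of all tested genes passed it in either direction, 8.07% lower and 7.05% higher. At an unadjusted p under 0.05 from the same test, 7 of the 10 genes were lower and 1, FETUB, was higher; no alternative tool or setting called any of them higher at an adjusted p under 0.05. The median log2 fold change was -0.51 over the 10 genes and -0.00101 over all tested genes. None of the 10 genes passed the thresholds of the study's methods (a fold change of at least 2 at an unadjusted P of at most 0.05), which 1.05% of tested genes passed as lower and 1.55% as higher; HP, at 1.93-fold lower, came nearest, and it alone passed in 1 of 16 alternatives, without shLINC01977 replicate 3. The groups did not overlap in CPM (counts scaled to library size with TMM factors) for 8 of the 10 genes, against 37.1% of all tested genes. The balance of calls over all genes depended on scaling, since 1455 genes were higher and 768 lower with library totals in place of TMM, and 6 of the 10 genes were then called lower and 0 higher. In RNA from whole cultures, fewer cells that express a gene and less RNA per cell cannot be told apart.

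**Figure D1:**
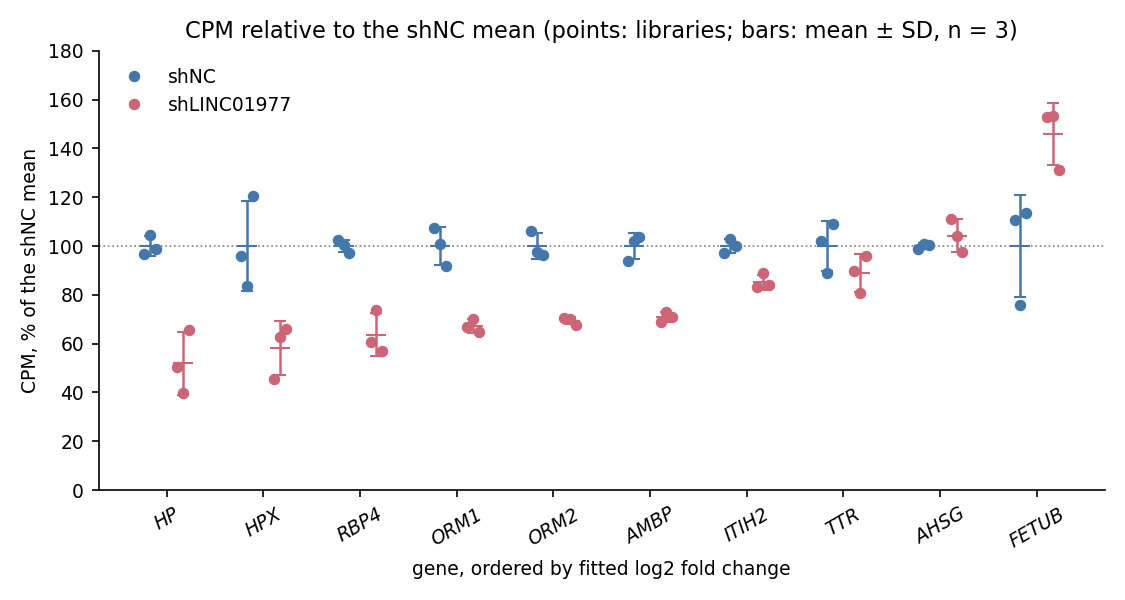
CPM of each gene as a percentage of its shNC mean, with genes in the order of the fitted log2 fold change; points are single libraries, and bars are the mean and SD of 3 libraries. Every shLINC01977 library lies below every shNC library for HP, HPX, RBP4, ORM1, ORM2, AMBP and ITIH2, and above for FETUB, while the groups overlap for TTR and AHSG.

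The levels of the 10 genes spanned a wide range. Mean FPKM over the 6 libraries, a level scaled to length, ranked AHSG 53rd, ITIH2 70th, AMBP 83rd, ORM1 96th, ORM2 129th and RBP4 234th of all 29153 genes. TTR ranked 3223rd, HP 6524th, HPX 8974th and FETUB 12166th, and the highest mean was 611-fold above the lowest. Summed over the 10 genes, FPKM was 2017, 2066 and 2026 in the shNC libraries and 1716, 1728 and 1666 in the shLINC01977 libraries, a log2 change of -0.26 in the mean. As a share of all counts the 10 genes made up 0.482%, 0.504% and 0.4997% in shNC and 0.437%, 0.441% and 0.426% in shLINC01977 libraries, a log2 change of -0.19. The 6 most abundant genes supply nearly all of both sums, AHSG among them. A caution holds for levels set side by side between genes. Count and FPKM together imply a length, which equalled the longest annotated transcript for ORM2 (760 nt) and exceeded it for the other 9 genes. The excess was widest for HP (5434 against 3024 nt), HPX (3669 against 1652 nt) and TTR (2174 against 957 nt). It was smaller for AHSG (2352 against 1711 nt), AMBP (2040 against 1434 nt) and FETUB (2036 against 1640 nt), and smaller again for RBP4 (1448 against 1314 nt), ORM1 (901 against 802 nt) and ITIH2 (3376 against 3193 nt). The FPKM of these 9 genes were therefore lower than their counts and longest annotated transcripts would give, and the order of neighbouring genes such as ITIH2 and AMBP carries that uncertainty.

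**Figure D2:**
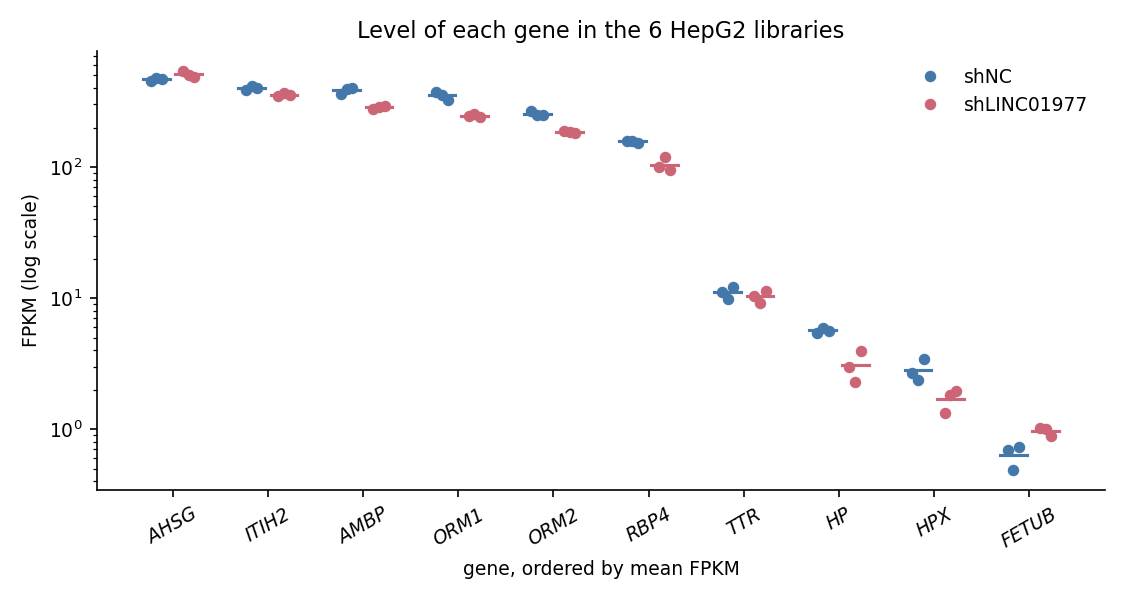
FPKM on a log axis for each gene in the 6 libraries, ordered by mean; points are libraries and lines are group means of 3. AHSG, ITIH2, AMBP, ORM1, ORM2 and RBP4 lie near or above 100 FPKM, and TTR, HP, HPX and FETUB lie between about 0.5 and 12.

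ORM1 and ORM2 encode the acid glycoproteins (orosomucoids), positive acute-phase members of the lipocalin family that bind basic and lipophilic drugs in plasma. The genes lie in tandem on the plus strand of chromosome 9 in GRCh38 (ORM1, ENSG00000229314, 114323056 to 114326475; ORM2, ENSG00000228278, 114329869 to 114333252), with 3393 bases between them. Their coding sequences of 606 nt were 94.9% identical in the GENCODE 29 transcripts, with 31 mismatches, and 47.4% of all 50-base windows of the ORM1 transcript were also found in ORM2 (50.2% the other way). Reads from such windows cannot be assigned to 1 gene by sequence, so the division of counts between the pair is uncertain. The 90 coding bases with the most mismatches are shown because they are where reads do tell the genes apart; bases 314 to 403 are counted from the first base of the start codon, and capitals mark the 18 mismatches.
ORM1: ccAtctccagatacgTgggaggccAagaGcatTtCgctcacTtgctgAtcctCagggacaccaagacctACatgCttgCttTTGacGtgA
ORM2: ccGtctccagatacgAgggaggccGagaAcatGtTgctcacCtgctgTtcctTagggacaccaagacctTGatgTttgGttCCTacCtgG

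ORM1 had counts of 23365, 19869 and 21558 in the shNC libraries and of 14697, 17015 and 13275 in the shLINC01977 libraries. ORM2 had 14105, 11714 and 13821 in shNC and 9448, 10412 and 8502 in shLINC01977 libraries. Every shLINC01977 library lay below every shNC library for both genes. In CPM, ORM1 went from 399 ± 31.5 to 268 ± 10.9 (SD, n = 3 in each group), and ORM2 from 244 ± 13.3 to 169 ± 3.62. ORM1 thus fell by 32.85% (log2 fold change -0.57, SE 0.0666, edgeR adjusted p = 0.00304), and ORM2 fell by 30.5% (-0.53, SE 0.0520, edgeR adjusted p = 0.00187). Both were called in all 17 alternatives. Counted together, the pair fell by 0.56 on the log2 scale (SE 0.0576, edgeR adjusted p = 0.00220), a sum chosen after the data were seen. The sum does not depend on how reads were divided between the pair. It does depend on whether reads of shared windows were kept, dropped or counted for both genes, which was not tested. The ratio of ORM1 to ORM2 FPKM was 1.40, 1.43 and 1.32 in the shNC libraries and 1.31, 1.38 and 1.32 in the shLINC01977 libraries, and the groups overlapped (p = 0.3 by a two-sided exact permutation of the 6 libraries, which cannot give a p below 0.1 with groups of 3). The genes that flank the pair did not pass the test: COL27A1, a collagen gene, had a log2 fold change of -0.18 (edgeR adjusted p = 0.134), and AKNA had 0.08 (edgeR adjusted p = 0.847).

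HP encodes haptoglobin, which binds free haemoglobin so that macrophages can clear it, and HPX encodes hemopexin, which binds free haem. HP (ENSG00000257017) lies on chromosome 16, 72054592 to 72061055, plus strand, and HPX (ENSG00000110169) on chromosome 11, 6431049 to 6442617, minus strand. HP had counts of 2040, 1994 and 2243 in the shNC libraries and of 1072, 935 and 1303 in the shLINC01977 libraries. All 3 shLINC01977 libraries were below the shNC libraries, and they were also further apart from each other, with a coefficient of variation of 24.9% against 4.01%. Haptoglobin CPM went from 38.7 ± 1.55 to 20.05 ± 4.996 (SD, n = 3), so that it fell by 48.2% (log2 fold change -0.95, SE 0.173, edgeR adjusted p = 0.0147), the largest fall among the 10 genes. The call was lost without shLINC01977 replicate 1 (-0.93, edgeR adjusted p = 0.0524).

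HP shares sequence with HPR, which encodes haptoglobin-related protein and starts 2168 bases beyond it on the same strand: 28.6% of 50-base windows of an HP transcript were found in HPR, and 37.2% the other way. The counts of HPR were 826, 723 and 359 in the shNC libraries and 480, 159 and 162 in the shLINC01977 libraries. These groups overlapped, and HPR was not called (log2 fold change -1.31, SE 0.547, edgeR adjusted p = 0.163). HP and HPR counted together gave 2866, 2717 and 2602 in shNC and 1552, 1094 and 1465 in shLINC01977 libraries, a log2 fold change of -1.03 (SE 0.189, edgeR adjusted p = 0.0150). This sum, chosen after the data were seen, passed the thresholds of the study's methods (edgeR unadjusted p = 0.00114). TXNL4B, on the opposite strand, overlaps both genes; reads of the overlap cannot be told apart where counting without strand is used, and the sources do not state the strand setting. TXNL4B itself had a log2 fold change of 0.06 (edgeR adjusted p = 0.731).

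HPX had counts of 678, 537 and 920 in the shNC libraries and of 326, 495 and 442 in the shLINC01977 libraries. The groups did not overlap, but shNC replicate 2, at 10.9 CPM, and shLINC01977 replicate 3, at 8.585 CPM, lay close. Hemopexin CPM went from 12.99 ± 2.42 to 7.55 ± 1.42 (SD, n = 3), so that it fell by 41.9% (log2 fold change -0.78, SE 0.194, edgeR adjusted p = 0.0404). This call was the least stable of the 7. It was lost with library totals, with no filter, with limma at each pseudocount, with the replicate number as a block, and when any library except shNC replicate 2 was left out (edgeR adjusted p up to 0.106), although the direction stayed the same.

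TTR encodes transthyretin, a carrier of thyroxine that also holds RBP4, the retinol-binding protein, in plasma; RBP4 carries retinol from liver stores to other tissues. RBP4 (ENSG00000138207) lies on the minus strand of chromosome 10, 93591687 to 93601744, and TTR (ENSG00000118271) on the plus strand of chromosome 18, 31591726 to 31599021. RBP4 counts were 15950, 14199 and 16366 in the shNC libraries and 9534, 12837 and 8385 in the shLINC01977 libraries. The groups did not overlap, and shLINC01977 replicate 2 was the highest of its group. RBP4 CPM went from 286 ± 7.54 to 182 ± 25.3 (SD, n = 3), so that it fell by 36.3% (log2 fold change -0.65, SE 0.0965, edgeR adjusted p = 0.00731), and the gene was called in all 16 alternatives. FFAR4 overlaps RBP4 on the other strand but had at most 12 counts in any library. CEP55, the nearest tested protein-coding gene on one side of RBP4, was higher (log2 fold change 0.34, edgeR adjusted p = 0.0380). FRA10AC1, on the other side, was not called (0.06, edgeR adjusted p = 0.663).

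The values of TTR, its partner in plasma, were less far apart. TTR had counts of 1685, 1332 and 1951 in the shNC libraries and of 1502, 1491 and 1501 in the shLINC01977 libraries. The groups overlapped, with means of 30.4 ± 3.12 and 27.0 ± 2.34 CPM (SD, n = 3). The log2 fold change was -0.17 (95% interval -0.42 to 0.08, edgeR adjusted p = 0.322), which as a percentage runs from -25.3% to 5.69%. B4GALT6, the nearest tested protein-coding gene on one side of TTR, was higher (log2 fold change 0.70, edgeR adjusted p = 0.03). DSG2, on the other side, was not called (0.01, edgeR adjusted p = 0.884). The ratio of TTR to RBP4 FPKM was 0.0704, 0.0625 and 0.0794 in the shNC libraries and 0.105, 0.0773 and 0.119 in the shLINC01977 libraries. The ranges overlapped at 1 library in each group (exact two-sided permutation test, p = 0.2, with 0.1 the lowest that this design allows), and a test with that floor cannot settle whether TTR and RBP4 differed in response.

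AMBP and ITIH2 encode parts of the inter-alpha-trypsin inhibitors, which stabilise the hyaluronan matrix outside cells. AMBP gives a precursor that is cut into alpha-1-microglobulin, a lipocalin that binds haem and small radicals, and bikunin, a protease inhibitor, and ITIH2 gives a heavy chain that is joined to bikunin. AMBP (ENSG00000106927) lies on the minus strand of chromosome 9, 114060127 to 114078472, which is 244583 bases from ORM1, and ITIH2 (ENSG00000151655) on the plus strand of chromosome 10, 7703269 to 7749520. AMBP had counts of 50687, 49927 and 60574 in the shNC libraries and of 37635, 43905 and 36168 in the shLINC01977 libraries. The groups were well separated in CPM, at 991 ± 52.5 and 703 ± 18.8 (SD, n = 3). AMBP fell by 29.1% (log2 fold change -0.50, SE 0.0488, edgeR adjusted p = 0.00187), and it was called in all 16 alternatives.

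ITIH2 had counts of 89977, 86134 and 99938 in the shNC libraries and of 77732, 91750 and 73314 in the shLINC01977 libraries. These raw counts overlapped, because shLINC01977 replicate 2 was the deepest library, while CPM did not, at 1652, 1746 and 1698 against 1412, 1508 and 1424. It fell by 14.75%, the smallest change of the 7 (log2 fold change -0.23, SE 0.0407, edgeR adjusted p = 0.0130), and the call was lost without shLINC01977 replicate 3 (-0.22, edgeR adjusted p = 0.0549). Of the other heavy chain genes, ITIH3 also fell (log2 fold change -0.89, SE 0.0771, edgeR adjusted p = 0.00135), from 10.6 to 5.94 FPKM. ITIH5, which lies next to ITIH2 on the opposite strand, had a log2 fold change of -0.57 and did not pass (edgeR adjusted p = 0.0622), and ITIH1, ITIH4 and ITIH6 were below the filter. With no filter, ITIH1 was lower (log2 fold change -1.89, edgeR adjusted p = 0.0133), at 0.274 FPKM in shNC and 0.0773 FPKM in shLINC01977 libraries. ITIH4 and ITIH6 were not called in that fit.

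AHSG encodes fetuin-A, which binds calcium phosphate in plasma and limits calcification, and FETUB encodes fetuin-B, an inhibitor of the egg protease ovastacin. They are neighbours on the plus strand of chromosome 3 (AHSG, ENSG00000145192, 186612923 to 186621318; FETUB, ENSG00000090512, 186635969 to 186653141), with 14650 bases between them and no shared 50-base window. AHSG, the most abundant of the 10 genes by FPKM, had counts of 74556, 69055 and 81755 in the shNC libraries and of 84657, 87790 and 69637 in the shLINC01977 libraries. The groups overlapped, at 1386 ± 15.5 and 1444 ± 92.9 CPM (SD, n = 3). The log2 fold change was 0.06 (95% interval -0.06 to 0.18, edgeR adjusted p = 0.476), which as a percentage of the shNC level runs from -4.20% to 13.4%. The lower bound of that interval lies above the upper bounds of HP, HPX, RBP4, ORM1, ORM2, AMBP and ITIH2, of which ITIH2 has the highest, at -0.13.

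FETUB was the least abundant, with counts of 98, 61 and 109 in the shNC libraries and of 137, 152 and 110 in the shLINC01977 libraries. In CPM the shLINC01977 libraries, at 2.49, 2.50 and 2.14, were all above the shNC libraries, at 1.80, 1.24 and 1.85. The log2 fold change of 0.54 (95% interval 0.01 to 1.07) had an unadjusted p of 0.0456 and did not pass after adjustment (edgeR adjusted p = 0.154). The ratio of AHSG to FETUB FPKM was 663, 974 and 648 in shNC and 535, 504 and 548 in shLINC01977 libraries; the groups did not overlap, with the smallest p the exact two-sided permutation test allows (0.1). AC068631.1, an antisense gene over both, had between 6 and 20 counts per library, which leaves AHSG little affected. Beside FETUB these counts are not negligible: shNC replicate 2 had 20 counts of AC068631.1 and 61 of FETUB. Whether they affected the FETUB values was not tested.

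**Figure D3:**
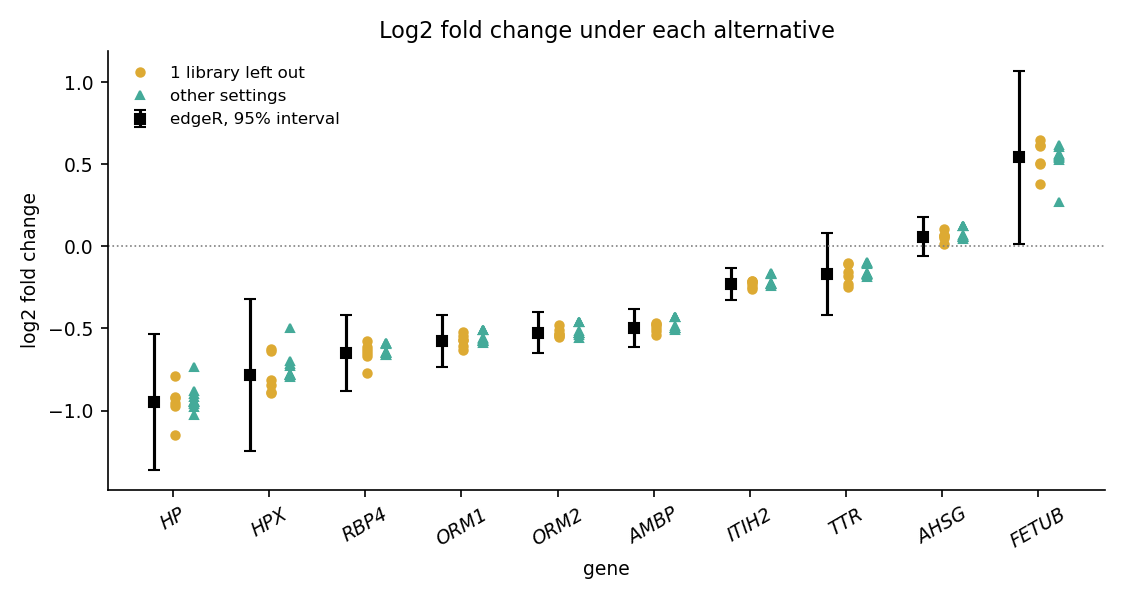
Log2 fold change of each gene (y axis) as fitted by edgeR with its 95% interval (squares), with 1 library left out (circles) and under the other settings (triangles). No value changes sign; HP reaches -1.15 when shLINC01977 replicate 3 is left out, and the smallest FETUB value, 0.27, comes from limma with a pseudocount of 1, which shrinks changes of low genes.

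Promoter sequence was available for 6 of the 10 genes from RefSeq (GRCh38.p14), in 9 windows of 250 bases before to 50 bases after an annotated start. RBP4 had 3 of these windows and FETUB 2, and RBP4 windows overlap, so that the same match of the second C/EBP form, and the same stretch with TATA box letters, were counted below in 2 windows of RBP4. The windows of ORM1, RBP4 and AMBP, which fell, and of AHSG, which was not called, are shown as the 200 bases upstream of the start, 5′ to 3′ on the gene's strand. Capitals mark letters that match a searched motif on either strand, including forms of HNF4 (AGGTCA or the longer CAAAGTCCA), C/EBP (TTGCNNAA and, overlapping it in part, TTNNGNAAT), STAT3 (TTCNNNGAA), NF-kB (GGGA, any 4 bases, CC) and the TATA box (TATAAA).
ORM1, chr9:114322898-114323097, plus strand: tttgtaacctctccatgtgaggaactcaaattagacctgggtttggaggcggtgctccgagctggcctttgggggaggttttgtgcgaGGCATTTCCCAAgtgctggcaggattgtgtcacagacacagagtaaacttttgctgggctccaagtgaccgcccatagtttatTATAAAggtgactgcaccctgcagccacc
RBP4, chr10:93601236-93601435, minus strand: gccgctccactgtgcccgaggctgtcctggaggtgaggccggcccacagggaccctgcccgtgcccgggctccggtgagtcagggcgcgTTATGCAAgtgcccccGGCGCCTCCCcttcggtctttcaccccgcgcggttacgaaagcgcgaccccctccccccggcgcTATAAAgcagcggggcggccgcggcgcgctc
AMBP, chr9:114078301-114078500, minus strand: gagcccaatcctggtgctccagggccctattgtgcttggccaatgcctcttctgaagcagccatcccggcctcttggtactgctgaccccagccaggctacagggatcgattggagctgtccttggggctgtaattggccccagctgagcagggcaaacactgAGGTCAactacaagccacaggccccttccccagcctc
AHSG, chr3:186612860-186613059, plus strand: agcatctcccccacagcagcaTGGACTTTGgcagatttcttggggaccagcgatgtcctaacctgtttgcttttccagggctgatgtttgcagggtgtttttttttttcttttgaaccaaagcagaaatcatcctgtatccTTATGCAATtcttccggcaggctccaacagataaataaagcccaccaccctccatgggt

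The second C/EBP form was found in windows of AHSG, FETUB, HPX, ORM1 and RBP4 (6 of 9 windows, against 6.46% of the 12935 windows of tested genes), and the first in those of AHSG, FETUB, HPX and RBP4 (4 of 9, against 7.34%). In ORM1 the second form lies 109 to 101 bases before the start and overlaps the NF-kB form, which itself is in 31.0% of all windows and in 7 of the 9. In the AHSG window, which belongs to a gene that was not called, both C/EBP forms overlap 59 bases before the start, and a reverse match of the longer HNF4 letters lies 179 bases before it (0.387% of all windows hold these). The short HNF4 letters were in the windows of AMBP and HPX (10.4% of all windows), the STAT3 form in 1 RBP4 window (6.04%) and the TATA box in 5 windows of FETUB, ORM1 and RBP4 (5.86%). The C/EBP letters were thus in windows of genes that fell (ORM1, HPX and RBP4) and of genes that were not called (AHSG and FETUB), and not in that of AMBP, which fell. The matches describe sequence and are not measured binding.

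Related genes were counted by list, and the lists share genes with the hepatocyte markers. ALB, AFP, APOA1, TF, SERPINA1, FGB and HNF4A, the markers that were lower, are counted again below, so the counts are not independent. Of 22 positive acute-phase genes outside the 10, 15 were tested, 8 were lower and the other 7 were not called, with a median log2 fold change of -0.43. SAA4, which the list includes although it is the constitutive serum amyloid, fell from 91.5 to 24.6 FPKM (log2 fold change -1.96, SE 0.146, edgeR adjusted p = 0.000986). FGB and FGG, which encode fibrinogen chains, had log2 fold changes of -1.10 and -0.99, and SERPINA1, which encodes alpha-1-antitrypsin, had -0.28 (edgeR adjusted p = 0.0101). SERPINA3, another inhibitor of the acute phase, was not called (-0.14, edgeR adjusted p = 0.371). CRP and SAA2 were not among the genes analysed.

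Negative acute-phase genes and other plasma carriers, which include the markers ALB, AFP, APOA1 and TF, were mostly lower. Of 14 such genes, 12 were tested, 10 were lower and 1 was higher, and the median log2 fold change was -0.74. ALB, which encodes albumin, fell from 1456 ± 71.1 to 713 ± 16.4 FPKM (SD, n = 3; log2 fold change -1.09, edgeR adjusted p = 0.000175). A1BG fell by 1.56 and SERPINA6, the corticosteroid carrier, by 0.82 on the log2 scale. LCN2, a lipocalin that binds bacterial siderophores, was the gene that rose (log2 fold change 1.21, SE 0.289, edgeR adjusted p = 0.0355), at 0.357 and 0.872 FPKM. Among 8 paralogs of the 10 genes, 3 were tested and 1, ITIH3 (already counted above), was lower; HRG and KNG1, relatives of the fetuins, were below the filter, at 0.0106 and 0.662 FPKM in shNC and 0.00375 and 0.232 FPKM in shLINC01977 libraries. With no filter, KNG1 was lower (log2 fold change -1.57, edgeR adjusted p = 0.0065) and HRG was not called (edgeR adjusted p = 0.713).

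**Figure D4:**
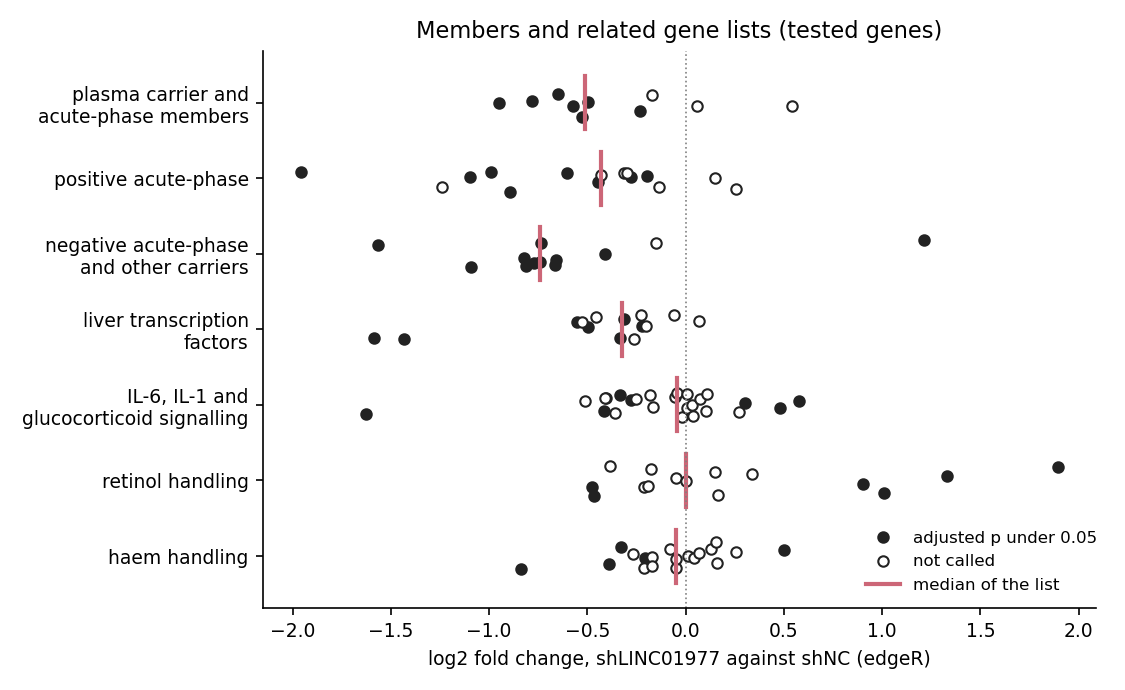
edgeR log2 fold change (x axis) of the tested genes of each list (rows); filled points passed at an adjusted p under 0.05, open points did not, vertical jitter carries no meaning, and the bar is the list's median. The medians of the members, the positive acute-phase list, the negative list and the liver factors lie at -0.51, -0.43, -0.74 and -0.32, and those of the signalling, retinol and haem lists lie within 0.05 of 0.

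Upstream regulators showed no single direction in signalling but falls among liver factors. Of 27 genes of interleukin 6, interleukin 1 and glucocorticoid signalling, 25 were tested, 5 were lower and 3 higher, with a median log2 fold change of -0.04. SOCS3 was below the filter, with counts of 48, 18 and 19 in shNC and 106, 111 and 128 in shLINC01977 libraries. With no filter SOCS3 was higher (log2 fold change 1.97, edgeR adjusted p = 0.0397). MYD88, an adaptor of the interleukin 1 receptor, fell by 1.63 on the log2 scale, with counts of 1251, 2438 and 2827 in shNC and 744, 751 and 673 in shLINC01977 libraries (edgeR adjusted p = 0.0122). NFKBIA, an inhibitor of NF-kB, fell by 0.42, and CEBPB, a C/EBP factor of the acute phase, by 0.41 at the edge of the threshold (edgeR adjusted p = 0.0499). STAT3, which relays interleukin 6 signals, fell by 0.28 (edgeR adjusted p = 0.0144), and its receptor gene IL6R was not called (0.11, edgeR adjusted p = 0.378). PIAS3, an inhibitor of STAT3, rose by 0.58, FKBP5, a glucocorticoid target, by 0.48 and JAK1, a kinase that acts with cytokine receptors, by 0.30.

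Of 16 liver transcription factors, 14 were tested, 7 were lower and the other 7 were not called, with a median log2 fold change of -0.32. ONECUT1 fell by 1.58 and NR1H4, the bile acid receptor, by 1.43 on the log2 scale. ONECUT1 was low, at 0.928 FPKM in shNC and 0.319 FPKM in shLINC01977 libraries, and reached the filter of 0.5 only through the shNC group. With no filter its log2 fold change was -1.60 (edgeR adjusted p = 0.00547). HNF4A, a central hepatocyte factor, fell from 7.42 to 5.28 FPKM (log2 fold change -0.55, SE 0.0817, edgeR adjusted p = 0.00715). The relation of these changes to those of the 10 genes was not tested.

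Genes that act beside the carriers were mixed. Of 24 genes of retinol handling, 15 were tested, 4 were higher and 2 lower, and the median was 0.004. STRA6, the cell-surface receptor for RBP4, rose from counts of 222, 178 and 149 in shNC to 471, 493 and 466 in shLINC01977 libraries (log2 fold change 1.33, SE 0.194, edgeR adjusted p = 0.00691), without overlap between the groups. At mean FPKM of 0.344 in shNC and 0.912 in shLINC01977 libraries, STRA6 reached the filter of 0.5 only through the group where it was higher. With no filter its log2 fold change was 1.32 (edgeR adjusted p = 0.00921). CRABP2, which binds retinoic acid inside cells, rose by 1.89 on the log2 scale. RXRA, the partner receptor of retinoic acid receptors, fell by 0.48, and RDH11, a retinal reductase, by 0.47. Below the filter, CYP26B1 and ALDH1A3 were higher in the fit with no filter. Their log2 fold changes were 1.65 (edgeR adjusted p = 0.0194) and 1.93 (edgeR adjusted p = 0.0219). The other genes of this list below the filter were not called in that fit. LRAT, which makes retinyl esters, was not analysed here.

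Of 20 genes of haem and haemoglobin handling, 19 were tested, 4 were lower and 1 was higher, with a median of -0.05. HMOX1, the inducible haem oxygenase, fell from 23.5 ± 0.208 to 13.7 ± 0.690 FPKM (SD, n = 3; log2 fold change -0.84, SE 0.0561, edgeR adjusted p = 0.000692). ALAD, an enzyme of haem synthesis, fell by 0.39 and FLVCR1, a haem exporter, by 0.33. SLC48A1, a haem transporter of the lysosome, rose by 0.50. LRP1, the receptor that takes up hemopexin with haem, was not called, and CD163, the haptoglobin receptor of macrophages, was below the filter.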

How the data were processed

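RNA from 3 shNC and 3 shLINC01977 HepG2 libraries was extracted with TRIzol and sequenced by the authors on an Illumina instrument. The submitters' processing notes name bcl2fastq 2.0, HISAT2, StringTie, DESeq2, limma and hg38; versions other than the first, the annotation and the strand setting are not given in the sources used here. The deposited counts are whole numbers per gene, not normalized, and the deposited FPKM values are scaled by the authors to transcript length and library total. The table's counts make up 81.2% to 81.8% of the total implied by FPKM, count and length in 1113 genes with 1 transcript. 

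Differences between groups came from edgeR 4.0.16 (TMM scaling, quasi-likelihood fit, Benjamini-Hochberg adjustment) in R 4.3.3 on the 13452 genes that reached a mean FPKM of 0.5, and the procedure was tested on simulated data. Single ratios used the exact two-sided permutation test, and 95% intervals are those of the fit. Alternatives were DESeq2 1.42.0, limma 3.58.1 on log2(FPKM + pseudocount) with 0.1, 1 and 0.01, other scalings and filters, counts divided by 4 (because counts of 4 are over-frequent), a replicate block and each library left out; summed counts of near-identical pairs were added after the data were seen. The 10 genes and all lists were chosen with earlier results of these data known. Of each list the text names up to 3 called genes, those that rose and fell most,, and HPR, HRG, KNG1, ALB, SERPINA1, SERPINA3, STAT3, IL6R, HNF4A, STRA6, LRAT and HMOX1 in any case, except that some items are not reported here; neighbours, list members below the filter and marker genes are named where a value touches a result. Coordinates are those of the deposited table, which for 9 of the 10 genes are also those of GENCODE 29 (GRCh38); TTR has another start there.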

Additional observations from a re-analysis of the deposited data

How the results depend on the processing

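No log2 fold change of the 10 genes changed sign in any alternative. The number called lower was between 5 and 7 in all 16, and the number called higher was 0. ORM1, ORM2, RBP4 and AMBP were called in every alternative run, with edgeR, limma or DESeq2 adjusted p of at most 0.0315, and TTR, AHSG and FETUB in none (FETUB had no value at a mean FPKM of at least 1, which it does not reach). HPX lost its call with library totals (-0.72, edgeR adjusted p = 0.0525), with no filter (-0.80), with limma at pseudocounts of 0.1 (-0.70), 1 (-0.50) and 0.01 (-0.73), and when any library except shNC replicate 2 was left out; over all 6 such fits its log2 fold change was between -0.90 and -0.63. With 1 library left out, HP was between -1.15 and -0.79 and ITIH2 between -0.26 and -0.21; HP lost its call without shLINC01977 replicate 1 and ITIH2 without shLINC01977 replicate 3, and between 0 and 1 of the 10 genes, HP, passed a fold change of 2. The summed level changed by -0.19 as a share of counts, against -0.26 in FPKM. Over all genes, 948 higher and 1085 lower calls became 549 to 669 and 627 to 738 with 1 library left out, and library totals gave 1455 higher and limma with 0.01 gave 722 lower. At a fold change of 2, 209 higher and 141 lower genes became 732 and 351 with no filter and 59 and 41 with limma and a pseudocount of 1, and 125 higher at a mean FPKM of at least 1. Replicate numbers did not pair the libraries: deviations of same-numbered libraries had correlations of -0.03, 0.004 and 0.06, and only the libraries numbered 3 correlated best with their own number. With the replicate number as a block, 636 genes were higher and 754 lower, 6 of the 10 genes were lower, and HPX was not called (-0.78, edgeR adjusted p = 0.0534). Over these settings the median log2 fold change of all genes lay between -0.00255 and 0.0652, against -0.00101 as reported. The cause of these shifts was not tested. FETUB had the fewest counts of the 10 genes, between 61 and 152 per library.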
